A study of Mus musculus with 23 samples.

Results

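The BCL2 family of apoptosis regulators was followed through 10 listed genes in medulloblastoma allografts treated with NVP-LDE225, which blocks Smoothened, the membrane protein that relays the Hedgehog signal. Every probe set whose annotated symbol is one of these genes was taken, which gave 30 of the 45101 probe sets on the array and 9 of the 18194 genes named by a probe set with 1 symbol. Bax is not analysed here. The 30 probe sets fall on Bcl2 (5), Bcl2l1 (4), Mcl1 (6), Bak1 (2), Bbc3 (1), Pmaip1 (1), Bcl2l11 (5), Bid (3) and Bmf (3). Of these, 28 passed the filter on low signal and were tested, and the other two (1426050_at of Bcl2l1 and 1425716_s_at of Bak1) had no array above 34.9 units. Where 1 value per gene is given, it is that of the gene's main probe set, the one with the highest mean log2 signal over all arrays.

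The tumours came from Ptch+/-HIC+/- mice, heterozygous for Ptch1, which encodes the receptor that restrains Smoothened, and for HIC as the labels name it, and every group has this genotype. Cells dissociated directly from such tumours were grafted under the skin of Harlan nu/nu mice, a nude strain that lacks a thymus and most mature T cells but keeps its own stroma and myeloid cells. RNA was purified from pieces of flash-frozen tumour, so it also holds RNA of these host cells. The 23 arrays form 8 groups: vehicle at 4 h (2 arrays), vehicle with no stated time (3, called vehicle below), drug at 40 mg/kg sampled after 4, 8, 24 or 48 h (3 for each time), and tumours labelled resistant, given 40 or 160 mg/kg with no stated time (3 each). The labels do not say whether arrays of a group come from separate mice, and p-values then measure only the spread between these samples, which may be technical.

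Members of this family share short BCL2 homology (BH) segments and act at the outer mitochondrial membrane. The guardians BCL2, BCL-XL (encoded by Bcl2l1) and MCL1 hold the effectors BAX and BAK (Bak1) in check, and the BH3-only proteins, among them PUMA (Bbc3), NOXA (Pmaip1), BIM (Bcl2l11), BID and BMF, bind the guardians or the effectors. Once freed, the effectors open the membrane, cytochrome c leaves the mitochondria and caspases are activated. Granule neuron progenitors, the cells from which Hedgehog-driven medulloblastoma arises, are pruned by this pathway during normal cerebellar development. Many of these proteins are also set by their stability and by splicing, which a 3' array does not measure.

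Signals were the MAS5 values as deposited, a linear brightness scaled to the same trimmed mean (150) on each array, and array medians lay between 33.9 and 46.7. Gli1, a direct target of Hedgehog signalling, had a mean signal of 679 ± 42 (SD, n = 3) on the vehicle arrays and of 12.3 ± 7.4 (n = 3) after 48 h of drug, against 1165 ± 172 (n = 3) in resistant tumours at 40 mg/kg and 633 ± 61 (n = 3) at 160 mg/kg. All 10 tumour lineage markers, Gli1 among them, had a probe set. Against vehicle 3 were called higher and 4 lower at 24 h, and 3 higher and 6 lower at 48 h, with median log2 differences of -0.27 and -1.14, and in resistant tumours 1 was higher and 0 lower (median -0.05). Their summed signal was 14440 to 16128 units on the vehicle arrays and 16406 to 18968 at 48 h, where Gli1 lay below the 40th percentile on all arrays. The part of these changes in the members' results was not tested. The 3' over 5' signal of actin on the log2 scale, a sign of RNA integrity, was 1.65 ± 0.22 (n = 3) at 24 h, above the vehicle arrays at 1.04 ± 0.040 (n = 3) and the 48 h arrays at 0.92 ± 0.067 (n = 3). Another label calls 6 of the 12 short-term arrays resistant, which the description and tumour status do not, and the description was followed.

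At 24 h and again at 48 h of drug, 7 of the 9 genes measured were called changed against vehicle by their main probe set, 5 higher and 2 lower each time. Over all 14980 genes tested by main probe set, 19.7% were higher and 14.4% lower at 24 h, and 25.1% and 21.3% at 48 h. Bcl2 and Pmaip1 were lower, and Bbc3, Bcl2l11, Bid and Bmf higher, at both times. With the 4 h vehicle arrays as the control in place of the vehicle arrays, Bbc3 was no longer called at either time (log2 0.42 and 0.47, adjusted p = 0.322 and 0.222), and the main probe set of Bcl2l11 turned to log2 -0.07 at 48 h (adjusted p = 0.823). Pmaip1 was then no longer called at 24 h (log2 -0.56, adjusted p = 0.115). Bcl2l1 was called higher at 24 h only and Mcl1 at 48 h only. Bak1 did not pass the test at either time.

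In resistant tumours Mcl1 and Bcl2l11 passed the test against vehicle by their main probe sets, both higher, where 4.15% of all genes were higher and 2.48% lower. The Mcl1 call was lost without vehicle replicate 1 or 2 or resistant 160 mg/kg replicate 3 (adjusted p = 0.115, 0.156 and 0.0739), and that of Bcl2l11 with the 4 h vehicle arrays as the control (log2 0.09, adjusted p = 0.848).

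In counts of probe sets, 16 of 28 (57.1%) differed from vehicle at 24 h, 9 higher and 7 lower, where 29.0% of all 35069 tested probe sets did (16.6% higher and 12.5% lower). After 48 h, 19 of 28 (67.9%) were called, 14 higher and 5 lower, against 38.3% of all probe sets (20.6% higher and 17.7% lower). The arrays of the groups did not overlap for 18 of the 28 at 24 h and 19 at 48 h, against 43.0% and 48.8% of all probe sets. Both shares lie above a background that was itself high. They are a description only: the 28 probe sets belong to 9 genes and are not independent. The genes were also chosen with earlier results of these data known. Throughout, a probe set is called where limma's adjusted p is below 0.05, and fold changes are on the scale of log2(signal + 16), which understates the change of dim probe sets. The median log2 difference over the 28 was -0.11 at 24 h and 0.38 at 48 h, against 0.10 and 0.04 over all tested probe sets. The 24 h, 48 h and resistant comparisons share the same 3 vehicle arrays.

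At the earlier times few members were called. Against the 4 h vehicle arrays, 0 of 28 probe sets were called after 4 h of drug by limma, where 0.285% of all probe sets were. An unadjusted p under 0.05 was found for 7 members and for 2316 of all 35069 probe sets. After 8 h 12 members had one, as did 4823 of all 35069 probe sets. Of the 28, 2 were called, both lower, against a background of 3.25% in all and 1.80% lower. These were Bcl2 1437122_at (log2 -1.48, SE 0.33, adjusted p = 0.0112) and Mcl1 1448503_at (log2 -0.46, SE 0.12, adjusted p = 0.0372). The Mcl1 call held in no fit that left out 1 array of either group (lowest adjusted p = 0.0565). That of Bcl2 was lost without drug 8 h replicate 1 or without either 4 h vehicle array. The count in these fits ranged from 0 to 1. The arrays did not overlap for 12 of the 28 at 4 h and 17 at 8 h, against 24.3% and 33.6% of all probe sets. Only 2 control arrays stand behind these comparisons. With all 5 vehicle arrays as the control 4 probe sets were called at 4 h, all of Mcl1 and all lower (log2 -0.44 to -0.38). At 8 h 10 probe sets were then called, those of Bcl2 and Mcl1 lower and those of Bbc3 and Bmf higher. The shares of all probe sets given above do not apply to that control. Between 4 and 8 h of drug, a comparison added after the data were seen, limma called 0 of 28, against 0.485% of all probe sets. There 2 members had an unadjusted p under 0.05, as did 2983 of all 35069 probe sets.

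**Figure D1:**
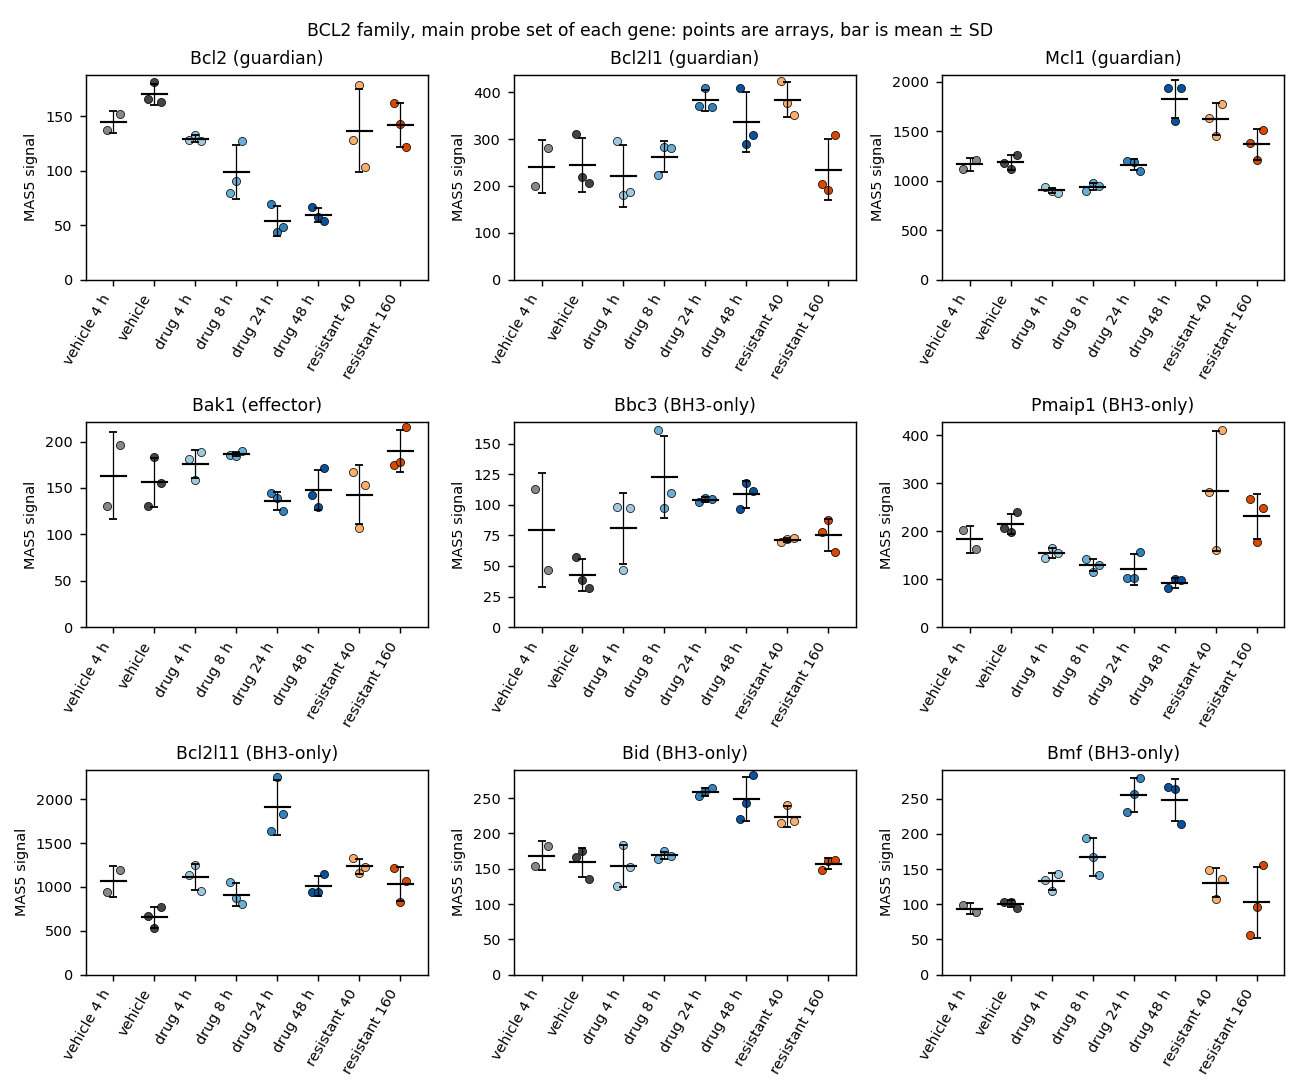
Deposited MAS5 signal (vertical axis, linear, starting at 0) of the main probe set of each of the 9 genes, by group along the horizontal axis. Points are arrays, the horizontal bar is the group mean and the whiskers are 1 SD. Bcl2 is lowest at 24 and 48 h, Bcl2l11 peaks at 24 h with a mean of 1908, and Mcl1 is highest at 48 h with a mean of 1821.

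Among the guardians, Bcl2 fell. Its main probe set, 1457687_at, read 166, 181 and 164 on the 3 vehicle arrays, 69.3, 43.6 and 48.3 at 24 h, and 66.6, 57.9 and 53.4 at 48 h. Every array of both treated groups lay below every vehicle array. The signal was 2.70-fold lower at 24 h (log2 -1.43, SE 0.19, adjusted p = 2.14e-06) and 2.48-fold lower at 48 h (log2 -1.31, SE 0.19, adjusted p = 3.78e-06). At 8 h it read 79.5, 90.2 and 127, between these levels, and at 4 h it lay between 128 and 133. Both calls held under each of the 18 alternative settings at 24 h and the 17 at 48 h, with log2 differences from -1.67 to -0.999 and from -1.51 to -0.93.

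In resistant tumours Bcl2 did not pass the test against vehicle. The 40 mg/kg arrays read 129, 179 and 103 and the 160 mg/kg arrays 162, 143 and 122, which overlapped the vehicle range (log2 -0.28, 95% interval -0.61 to 0.05, adjusted p = 0.385). Against the 48 h arrays, which received the same dose, the 40 mg/kg resistant tumours were 1.99-fold higher (log2 1.00, SE 0.19, adjusted p = 1.99e-04), and all 3 arrays lay above all 3 of the 48 h arrays. In the order of group means, vehicle stood first at 170.4 ± 9.6 (n = 3). It was followed by 4 h vehicle, resistant 160 mg/kg, resistant 40 mg/kg and 4 h of drug, 4 groups whose arrays overlapped from each to the next. The 8 h arrays, from 79.5 to 127, lay below the 4 h vehicle and 4 h drug arrays but overlapped both resistant groups. The 48 h and 24 h arrays, which overlapped, lay lowest.

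The other Bcl2 probe sets moved the same way where they moved. Probe sets 1437122_at, 1440770_at and 1443837_x_at were called lower at 24 h (log2 -1.35, -1.31 and -0.77) and at 48 h (log2 -1.09, -1.34 and -0.99). Their signals were dim: 1440770_at, for instance, read 39.4, 104 and 71.2 on the vehicle arrays and 28.9, 15 and 9.8 at 48 h, with no overlap. The fifth, 1422938_at, was not called at either time (log2 -0.46 and -0.22) and its arrays overlapped those of vehicle. The 24 h call of 1443837_x_at was lost without drug 24 h replicate 2 or 3 or vehicle replicate 2, at adjusted p from 0.0948 to 0.129.

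The promoter of Bcl2 is shown because Smoothened signals through the GLI transcription factors, whose recognition motif has 9 letters. The sequence is the 250 bases before the RefSeq start on the minus strand of build GRCm38.p6, at chr1:106714291-106714540, read 5′ to 3′ toward the gene.
Bcl2: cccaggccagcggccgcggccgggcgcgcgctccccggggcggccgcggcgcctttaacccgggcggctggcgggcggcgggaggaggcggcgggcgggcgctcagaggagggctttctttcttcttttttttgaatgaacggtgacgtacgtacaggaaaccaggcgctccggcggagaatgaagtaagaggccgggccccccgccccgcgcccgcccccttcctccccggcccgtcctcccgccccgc
It is rich in G and C, at 74.8% GC with 36 CpG pairs, where the medians over 32851 promoters of the same length were 52.4% and 6. The GLI motif TGGGTGGTC was searched on both strands and is absent from these letters and from all 15 member promoters in the table, while 0.225% of all promoters hold it. No match says only that these letters are not in this window.

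Bcl2l1 was called higher at 24 h by 1 of its 3 tested probe sets. Probe set 1420888_at read 311, 219 and 206 on the vehicle arrays, 370.5, 409 and 369 at 24 h, and 409, 290.4 and 309.6 at 48 h. The 24 h arrays all lay above vehicle, 1.55-fold on average (log2 0.63, SE 0.19, adjusted p = 0.0167), while those of 48 h overlapped it (log2 0.44, adjusted p = 0.0819). The 24 h call was lost without drug 24 h replicate 2, vehicle replicate 2 or vehicle replicate 3, at adjusted p from 0.0609 to 0.0849. The 48 h difference was called without vehicle replicate 1, at adjusted p = 0.0254. Probe sets 1420887_a_at (log2 0.42 and 0.07) and 1426191_a_at (log2 -0.17 and 0.22) were called at neither time.

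Mcl1 rose late, between 24 and 48 h of drug. Its protein is short-lived, so its level follows its synthesis closely. Its main probe set, 1437527_x_at, read 1173, 1115.5 and 1262 on the vehicle arrays, 1197, 1188.5 and 1097.5 at 24 h, and 1931, 1598 and 1933 at 48 h. The 24 h arrays overlapped vehicle, and each 48 h array lay above both groups. The signal at 48 h was 1.53-fold that of vehicle (log2 0.61, SE 0.10, adjusted p = 2.14e-05). The 4 h and 8 h arrays, from 874 to 975, lay below both 4 h vehicle arrays (1119 and 1207.5), with adjusted p of 0.314 and 0.163.

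All 6 Mcl1 probe sets were called higher at 48 h than vehicle, by log2 0.28 to 0.65. They were also higher at 48 h than at 24 h of drug, by log2 0.58 to 1.23, in a comparison of those time points that was added after the data were seen and in which 7 of 28 members were called, 6 higher and 1 lower, against 20.5% of all probe sets (9.73% higher and 10.8% lower). Arrays of the 2 times did not overlap for 10 of the 28, against 37.8% of all. At 24 h, 1416881_at (log2 -0.73, adjusted p = 0.00232) and 1448503_at (log2 -0.40, adjusted p = 0.00782) were called lower than vehicle and the other four did not pass. The probe sets of this gene therefore differ in size and call at 24 h, though all 6 differences were negative (log2 -0.73 to -0.03). With the 4 h vehicle arrays as the control both 24 h calls were lost (adjusted p = 0.121 and 0.0536). Probe set 1416881_at read 290.1, 309.9 and 266.5 on the vehicle arrays, 171, 157.5 and 175 at 24 h, and 393, 379 and 477 at 48 h. The x_at probe sets hold probes that can match other transcripts and are less certain than 1416880_at, 1416881_at and 1448503_at, whose differences at 48 h were 0.48, 0.50 and 0.28. That of 1448503_at, with adjusted p = 0.0453, was lost in 8 of its alternatives.

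In resistant tumours 3 of the 6 Mcl1 probe sets were called higher than vehicle: 1416880_at (log2 0.39, adjusted p = 0.0132), 1456381_x_at (log2 0.37, adjusted p = 0.0182) and 1437527_x_at (log2 0.32, adjusted p = 0.0295). Across the 6 resistant arrays 1416880_at ranged from 904 to 1223 with a median of 1053, above the vehicle arrays, which read 795, 732 and 868. Leaving out either vehicle replicate 1 or vehicle replicate 2 ended each of the 3 calls, and that of 1437527_x_at was lost in 5 of its 20 alternatives.

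**Figure D2:**
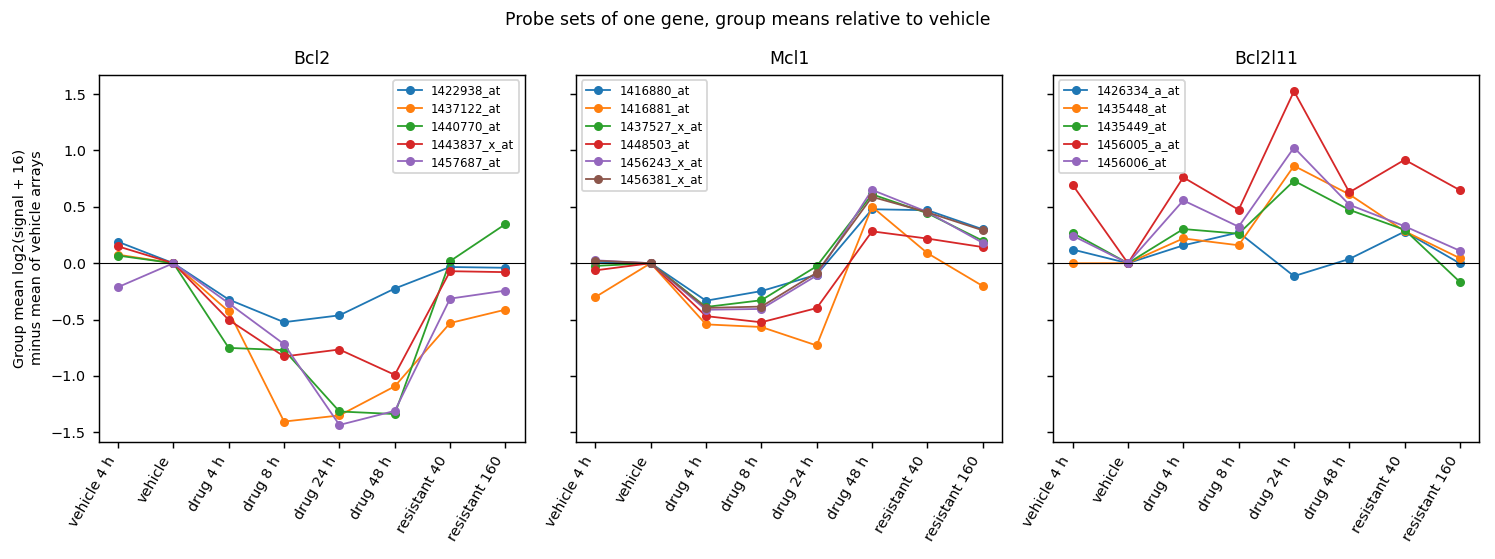
Group mean of log2(signal + 16) minus the mean of the 3 vehicle arrays (vertical axis) for every tested probe set of Bcl2, Mcl1 and Bcl2l11, by group along the horizontal axis, which is in order of group and not to scale in time. Lines join the points of 1 probe set. The 6 Mcl1 probe sets rise together from 24 to 48 h, and 1456005_a_at of Bcl2l11 stands above 0 in the 4 h vehicle group too.

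The effector Bak1 did not pass the test in any comparison. Probe set 1418991_at read 130.2, 183 and 155 on the vehicle arrays, 144, 139 and 125 at 24 h, and 143, 129.6 and 171 at 48 h, and the groups overlapped. The differences were log2 -0.17 (95% interval -0.52 to 0.17, adjusted p = 0.493) and -0.07 (-0.41 to 0.28, adjusted p = 0.795). In resistant tumours the difference was 0.07 (-0.23 to 0.36, adjusted p = 0.871). Group means over the whole series ran from 136 ± 9.9 (n = 3) at 24 h to 189.5 ± 22.7 (n = 3) in resistant tumours at 160 mg/kg, the smallest span among the 9 genes.

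Among the BH3-only genes, Bcl2l11, which encodes BIM, an activator of BAX and BAK, was higher at 24 h. Its main probe set, 1456005_a_at, read 665, 527 and 770.1 on the vehicle arrays, 1637, 2252 and 1834 at 24 h, and 944, 946 and 1148 at 48 h. All arrays of both treated groups lay above vehicle, and those of 24 h above those of 48 h. The signal was 2.88-fold that of vehicle at 24 h (log2 1.53, SE 0.16, adjusted p = 5.61e-08) and 1.55-fold at 48 h (log2 0.63, SE 0.16, adjusted p = 0.00220). Between 24 and 48 h of drug it fell by 0.90 on the log2 scale (adjusted p = 1.91e-04).

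The 2 vehicle groups did not overlap at this probe set, though limma did not call the difference. The 4 h vehicle arrays read 937 and 1191, above all 3 vehicle arrays (log2 0.69, unadjusted p = 5.58e-04, adjusted p = 0.147). With the 4 h vehicle arrays as the control, the 24 h rise was 0.83 and still called, the 48 h difference turned to -0.07 (adjusted p = 0.823) and the resistant difference was 0.09 (adjusted p = 0.848). With all 5 vehicle arrays the 48 h difference was 0.35 (adjusted p = 0.122). The 40 mg/kg resistant arrays read 1328, 1155 and 1229 and the 160 mg/kg arrays 1216, 824.5 and 1062.5, all above the vehicle arrays (log2 0.78, SE 0.13, adjusted p = 0.00128) but overlapping the 4 h vehicle arrays.

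Another probe set of Bcl2l11 was steadier in the controls. Probe set 1435448_at read 414, 365 and 425 on the vehicle arrays and 386 and 416 on the 4 h vehicle arrays, then 704, 756 and 767 at 24 h and 605, 627.5 and 627 at 48 h. It was called higher at 24 h (log2 0.86, adjusted p = 2.23e-06) and at 48 h (log2 0.61, adjusted p = 1.06e-04) under every alternative run, and not in resistant tumours (log2 0.16, adjusted p = 0.401). Probe sets 1435449_at (log2 0.73 and 0.47) and 1456006_at (log2 1.03 and 0.52) were called at both times, and 1426334_a_at (log2 -0.11 and 0.04) at neither. The 48 h calls of 1435449_at and 1456006_at, at adjusted p of 0.0421 and 0.0339, were lost with quantile normalization, with the 4 h vehicle arrays as the control and without single arrays of either group.

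Bim and Puma are known targets of FOXO factors, so the promoters of Bcl2l11 and Bbc3 were searched for the letters TGTTTAC on both strands. The 250 bases before 1 of the RefSeq starts of Bcl2l11, on the plus strand of GRCm38.p6 at chr2:128125788-128126037, hold 1 match, in capitals, which begins 227 bases before the start and reads on the other strand. For Bbc3 the 30 bases around a match 167 bases before a start, on the plus strand at chr7:16310083-16310112, are shown.
Bcl2l11: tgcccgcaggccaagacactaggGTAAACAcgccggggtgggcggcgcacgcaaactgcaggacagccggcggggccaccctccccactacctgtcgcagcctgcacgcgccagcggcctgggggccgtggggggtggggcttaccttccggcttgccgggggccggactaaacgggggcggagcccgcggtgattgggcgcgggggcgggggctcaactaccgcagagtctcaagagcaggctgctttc
Bbc3: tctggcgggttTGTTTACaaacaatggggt
These letters stand in 2 of the 15 member promoters and in 3.17% of all 32851. The E2F letters TTTGGCGC or TTTCCCGC and the CRE letters TGACGTCA were found in 0 of the 15, against 1.3% and 1.55% of all promoters. A p53 half-site match was found in 1 member promoter, of Bmf, against 7.13% of all. The table holds promoters for 8 of the member genes, and a match is a description of the letters, not of binding.

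Bmf, whose protein is held on the actin and myosin cytoskeleton until cells detach or are stressed, rose at both times. Probe set 1454880_s_at read 103, 104 and 95.4 on the vehicle arrays, 231, 256 and 279.5 at 24 h, and 266, 264 and 213.5 at 48 h. No treated array overlapped vehicle, and the signal was 2.32-fold higher at 24 h (log2 1.21, SE 0.21, adjusted p = 8.17e-05) and 2.25-fold higher at 48 h (log2 1.17, SE 0.21, adjusted p = 6.92e-05). Its means also stood above the 4 h vehicle arrays (99.0 and 88.6) at 4 h (134.5, 119 and 143) and 8 h (194, 167 and 141), with no overlap but adjusted p of 0.806 and 0.0952. The dim probe set 1458325_x_at was called higher at both times (log2 0.95 and 0.94), calls that were lost without single arrays, and 1422995_at, with arrays from 1.1 to 32.9, was called at neither (log2 -0.83 and -0.77). In resistant tumours the main probe set overlapped vehicle (log2 0.12, adjusted p = 0.784), and at 40 mg/kg it was 1.81-fold lower than at 48 h of drug (log2 -0.85, adjusted p = 0.00266).

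Bbc3, the gene of PUMA, a p53 and FOXO target that binds all the guardians, was called higher against the vehicle arrays. Probe set 1423315_at read 57.6, 38.7 and 32 there, 102, 106 and 105 at 24 h, and 96.3, 118 and 112 at 48 h, with no overlap. The differences were 2.08-fold (log2 1.06, SE 0.25, adjusted p = 0.00233) and 2.15-fold (log2 1.10, SE 0.25, adjusted p = 9.75e-04). The 4 h vehicle arrays read 113 and 46.8, which reaches into the treated range, and against them the differences were 0.42 (adjusted p = 0.322) and 0.47 (adjusted p = 0.222). The rise of Bbc3 thus depends on which vehicle arrays serve as control, though both calls held with all 5 of them. The 8 h drug arrays read 161, 97.5 and 109.7, the highest group mean of the series. Their difference was not called against the 4 h vehicle arrays (log2 0.60, adjusted p = 0.337) but was against all 5 vehicle arrays (log2 0.98, adjusted p = 0.0121). The 4 h drug arrays read 97.9, 46.8 and 97.3. In resistant tumours all 6 arrays, from 61.6 to 87.4, lay above the 3 vehicle arrays without a call (log2 0.63, 95% interval 0.18 to 1.08, adjusted p = 0.103).

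Pmaip1, the gene of NOXA, a BH3-only protein that binds MCL1 in particular, went the other way. Probe set 1418203_at read 207, 199 and 239 on the vehicle arrays, 102, 101.5 and 157 at 24 h, and 81.0, 100.2 and 97.4 at 48 h. All 6 treated arrays lay below vehicle, 1.72-fold at 24 h (log2 -0.78, SE 0.22, adjusted p = 0.00979) and 2.12-fold at 48 h (log2 -1.08, SE 0.22, adjusted p = 3.49e-04). The 48 h call held under all 17 alternatives, while that of 24 h was lost under 4 of 18. It was lost without drug 24 h replicate 2 (adjusted p = 0.0504) and with the identifier run as a factor (adjusted p = 0.0540). It was also lost without the 6 short-term arrays that another label calls resistant (adjusted p = 0.0910). With the 4 h vehicle arrays as the control the 24 h difference was log2 -0.56 (adjusted p = 0.115). In resistant tumours at 40 mg/kg it read 281, 160.1 and 411, from below vehicle to above it, and at 160 mg/kg 267, 178 and 248. Against 48 h of drug the 40 mg/kg resistant tumours were 2.59-fold higher (log2 1.38, SE 0.22, adjusted p = 3.64e-05), with no overlap.

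Bid, whose protein is cut by caspase-8 and links death receptors to the mitochondria (known as an amplifier of that signal), was higher at both times by its main probe set. Probe set 1417045_at read 167, 175 and 135 on the vehicle arrays, 253, 259.6 and 264 at 24 h, and 221, 244 and 282.5 at 48 h. No treated array overlapped vehicle (1.58-fold, log2 0.66, SE 0.14, adjusted p = 6.37e-04, and 1.52-fold, log2 0.60, SE 0.14, adjusted p = 9.60e-04), and both calls held under every alternative. The resistant tumours split by dose, with 214, 240.4 and 217 at 40 mg/kg and 148, 161 and 163 at 160 mg/kg, and the pooled difference from vehicle was 0.23 (adjusted p = 0.319). Probe set 1447873_x_at (log2 0.42 and 0.32) was called at neither time, and 1448560_at (log2 -0.91 and -0.09, adjusted p = 0.0517 and 0.881) read the other way at 24 h, with 2 of its 3 arrays at 2.0 and 3.1. That 24 h difference was called lower in 8 of its 17 alternatives, among them the offset of 1 (adjusted p = 0.0201), quantile normalization (adjusted p = 0.0286) and all 5 vehicle arrays as the control (adjusted p = 0.00955), so the probe sets of Bid disagree at 24 h.

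**Figure D3:**
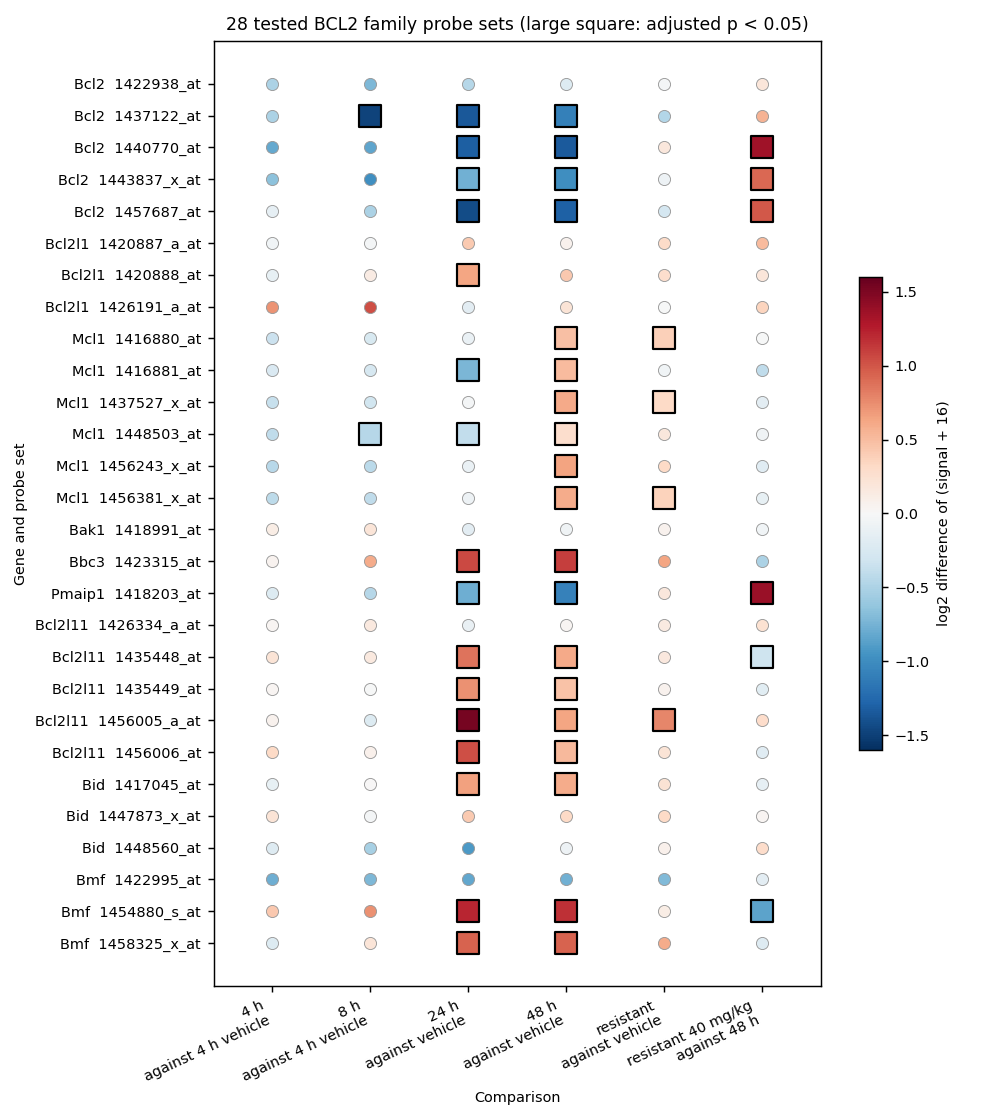
Log2 difference of (signal + 16) in colour for each of the 28 tested probe sets (rows) in 6 comparisons (columns), red for higher and blue for lower in the first-named group. Large squares are called at an adjusted p below 0.05 and small circles are not. The columns for 24 and 48 h hold 16 and 19 squares, and that for resistant against vehicle holds 4.

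Set against vehicle, the resistant tumours had 4 of 28 probe sets called, all higher, where 4.80% of all probe sets were called (2.96% higher and 1.84% lower). These are the 3 of Mcl1 and 1456005_a_at of Bcl2l11 given above, and the count fell to 1 without vehicle replicate 1 or vehicle replicate 2. Bcl2, Pmaip1, Bid and Bmf, which were called at both 24 and 48 h, did not pass here, and their 95% intervals for the main probe set were -0.61 to 0.05, -0.21 to 0.58, -0.02 to 0.47 and -0.25 to 0.50 on the log2 scale. The median over the 28 was 0.18, against 0.01 over all tested probe sets.

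At the same dose of 40 mg/kg, resistant tumours differed from those treated for 48 h at 6 of 28 probe sets, 4 higher and 2 lower, where 30.0% of all probe sets differed (14.6% higher and 15.4% lower). The share of members is below that background. Higher were the Bcl2 probe sets 1440770_at (log2 1.36), 1457687_at (log2 1.00) and 1443837_x_at (log2 0.92) and Pmaip1 (log2 1.38), and lower were Bmf 1454880_s_at (log2 -0.85) and Bcl2l11 1435448_at (log2 -0.33). The 6 Mcl1 probe sets did not pass (log2 -0.41 to -0.01, adjusted p from 0.0776 to 0.969). The calls of Bcl2l11 1435448_at (adjusted p = 0.0296) and Bcl2 1443837_x_at were lost without resistant 40 mg/kg replicate 1, at adjusted p of 0.190 and 0.0667.

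Between the doses of the resistant tumours, limma called 0 of 28 probe sets, where 2.13% of all were called. An unadjusted p under 0.05 was found for 9 members and for 4235 of all 35069 probe sets. The values nearest to a call were lower at 160 mg/kg. Bcl2l1 1420888_at read 424.5, 376 and 352 at 40 mg/kg and 205, 191 and 309.5 at 160 mg/kg (log2 -0.70, adjusted p = 0.0630), and Bid 1417045_at differed by -0.47 (adjusted p = 0.0794), both with no overlap. Without resistant 160 mg/kg replicate 3 the Bcl2l1 difference was called, at -0.90 with adjusted p = 0.0132. The 2 vehicle groups differed at 0 of 28 probe sets by limma, against 0.123% of all. There 3 members had an unadjusted p under 0.05, as did 2778 of all 35069 probe sets.

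Other genes of the pathway were counted in 4 lists by main probe set. The shares over all 14980 genes given above are their background. Of 16 other BCL2 homologues, 8 were tested: 1 was higher and 2 lower at 24 h, 1 higher and 3 lower at 48 h, and 0 higher and 1 lower in resistant tumours, with medians of 0.14, -0.38 and -0.08. Bok, an effector related to BAX and BAK, fell from a signal of 1018 ± 65 (n = 3) to 217 ± 25 (n = 3) at 48 h (log2 -2.15, adjusted p = 9.11e-10). In resistant tumours Bok was 428 ± 95 (n = 3) at 40 mg/kg and 1088 ± 399 (n = 3) at 160 mg/kg. The 160 mg/kg tumours lay above those at 40 mg/kg (log2 1.28, adjusted p = 1.67e-04), so the call of the pooled doses against vehicle (log2 -0.60, adjusted p = 0.0225) goes with a lower mean at 40 mg/kg only. Bcl2l13 (log2 -0.79) and Bcl2l12 (log2 -0.75) were also lower at 48 h, and Hrk, a neuronal BH3-only gene, was higher, from 70.4 ± 11.2 to 152 ± 32 (n = 3 each, log2 0.95, adjusted p = 0.0253).

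In the list of the apoptosome, the caspases and their inhibitors, 17 of 19 genes were tested. The list also holds genes of mitochondrial proteins, such as Cycs, Aifm1, Diablo and the Vdac genes, so its counts are not counts of caspases. At 24 h 2 were higher and 2 lower, at 48 h 3 and 7, and in resistant tumours 0 and 1, with medians of -0.05, -0.06 and -0.01. Birc5 (survivin), which is made in dividing cells, was lower at 48 h (1072 ± 28 to 224 ± 58, n = 3 each, log2 -2.21, adjusted p = 6.40e-10) and in resistant tumours (log2 -0.74, adjusted p = 0.00606). Cycs, the gene of cytochrome c, was lower at 48 h (log2 -0.83, adjusted p = 3.17e-05). Casp8, the caspase that cuts BID, was higher at 48 h (161 ± 11 to 487 ± 84, n = 3 each, log2 1.50, adjusted p = 3.50e-05), as was Birc3, an inhibitor of apoptosis (log2 2.16, adjusted p = 5.70e-05).

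Upstream, 11 of 13 listed regulators were tested, and 3 were higher and 3 lower at 24 h, and 3 and 5 at 48 h, with medians of 0.07 and 0.10. In resistant tumours limma called 0 of the 11, of which 3 had an unadjusted p under 0.05, with a median of 0.01. Over all 35069 tested probe sets, 6338 had an unadjusted p under 0.05 in that comparison. Mycn (log2 -1.51, adjusted p = 8.88e-10), E2f1 (log2 -1.75, adjusted p = 1.24e-08) and Atf4 (log2 -0.63, adjusted p = 1.22e-06) were lower at 48 h. Mapk10, the neuronal JNK kinase, was higher (64.2 ± 15.6 to 496 ± 130, n = 3 each, log2 2.66, adjusted p = 9.35e-07). Both FOXO genes of the list are named here after their values were seen, and they differed in direction. Foxo3 was higher at 24 h (log2 0.60, adjusted p = 0.00291) and at 48 h (log2 0.72, adjusted p = 3.29e-04), while Foxo1 went from 395 ± 43 (n = 3) on the vehicle arrays to 269 ± 7.7 (n = 3) at 24 h (log2 -0.53, adjusted p = 0.0744) and 229 ± 85 (n = 3) at 48 h, where it was called lower (log2 -0.81, adjusted p = 0.00429). Of 6 genes that set the turnover of MCL1 protein, 1 was higher at 24 h, and at 48 h Gsk3b was higher (log2 0.25, adjusted p = 0.0366) and the ubiquitin ligase gene Huwe1 lower (log2 -0.44, adjusted p = 8.77e-04). The 48 h arrays of Gsk3b, from 817.5 to 899.6, lay above the vehicle arrays but overlapped the 4 h vehicle arrays, from 846.5 to 913.2. In resistant tumours limma called 0 of the 6 turnover genes, and 0 had an unadjusted p under 0.05. The medians were 0.08, -0.13 and -0.08.

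**Figure D4:**
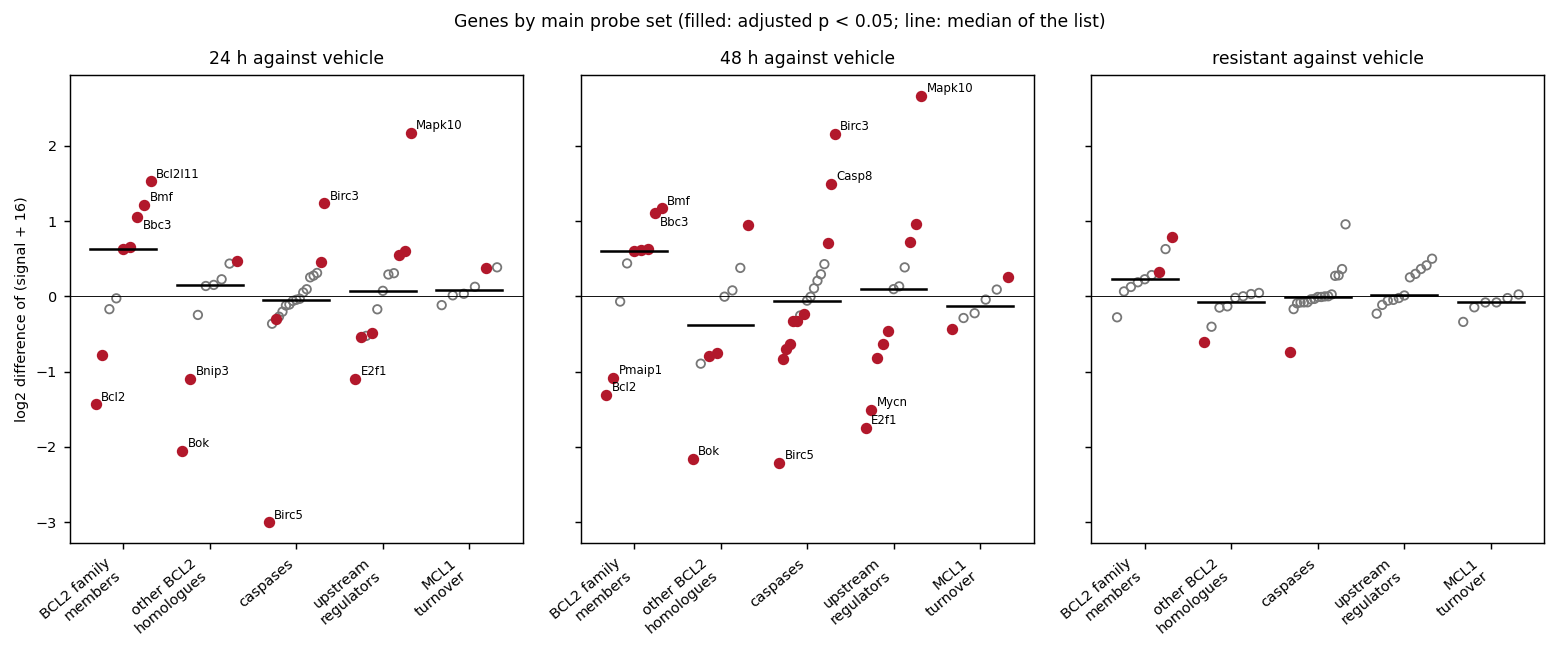
Log2 difference of (signal + 16) against vehicle (vertical axis) by main probe set, for the 9 measured BCL2 family genes and the 4 lists, at 24 h, at 48 h and in resistant tumours. Filled points are called at an adjusted p below 0.05, open points are not, the line is the median, and points of a list are spread sideways by rank. Called genes past 1 are named, among them Bok and Birc5 below and Mapk10 above 0.

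Over the 23 arrays, the genes whose main probe set followed Bcl2 most closely were Orc6 (r = 0.95), Nptx1 (r = 0.95) and Lrp8 (r = 0.94). Those closest to Pmaip1 were Ngef (r = 0.93), Mymx (r = 0.91) and Grpel2 (r = 0.90). Bcl2l11 had less close neighbours, Ttc8 (r = 0.85), Cttn (r = 0.78) and Prepl (r = 0.77). These are Pearson correlations of log2(signal + 16) over arrays that share the 8 groups, given as a description of the best matches among the tested genes.

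The tumours also changed in the genes of other cells, so the members were read in a changing mixture of cells. In bulk RNA, fewer cells of a type and less RNA per cell cannot be told apart. The summed signal of 10 macrophage markers was 1439 to 2400.4 units on the vehicle arrays, 3219 to 5406 at 24 h, 24812 to 33245 at 48 h, 7709 to 10776 in resistant tumours at 40 mg/kg and 2563 to 10403 at 160 mg/kg, with 5, 10 and 7 of 10 markers called higher at 24 h, at 48 h and in resistant tumours. Itgam was below the 40th percentile on all arrays of every group but the 48 h one, and Cd14 on both 4 h vehicle arrays. The 7 fibroblast markers summed to 2874 to 7789.9 units on the vehicle arrays, 16943 to 23193 at 24 h and 31784 to 44735 at 48 h, and all 7 were called higher at both times. In resistant tumours they summed to 13596 to 18230.0 units at 40 mg/kg and 4161 to 20256 at 160 mg/kg, and 3 of 7 were called higher. Of the 7 endothelial markers, 2 were called higher at 24 h and 7 at 48 h, with sums of 333.5 to 648 units on the vehicle arrays, 658 to 917 at 24 h and 1108 to 1688 at 48 h. The 48 h rises of Mcl1, Casp8 and Birc3 came with these sums, whose part in the result was not tested.

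Markers of young neurons rose at both times. The 8 markers summed to 2689 to 2874 units on the vehicle arrays, 7608 to 8154 at 24 h and 9654 to 10571 at 48 h, with 6 of the 7 tested called higher at each time, and Nefl was below the 40th percentile on all arrays of every group but vehicle. Skeletal muscle markers summed to 957 to 9341 units on the vehicle arrays and 9164 to 12677 at 24 h, where 7 of 8 were called higher, and to 1755 to 10767 at 48 h, which overlaps both. The proliferation gene Mki67 went from 4810.5 ± 66.7 (n = 3) on the vehicle arrays to 346 ± 37 (n = 3) at 24 h and 573 ± 139 (n = 3) at 48 h, and was 3071 ± 746 (n = 3) and 4178 ± 920 (n = 3) in resistant tumours at 40 and 160 mg/kg. The rises of Bcl2l11, Bmf, Bid and Bbc3 and the falls of Bcl2 and Pmaip1 came with these values and with the higher actin ratio at 24 h, and the part of each was not tested. Dimmer marker lists moved as well. The 4 neutrophil markers with a probe set summed to 21.4 to 39.5 units on the vehicle arrays and 122.4 to 280.3 at 48 h, and both tested ones were called higher there (median log2 2.14), while Mpo and Elane stayed below the 40th percentile on all 48 h arrays. The 7 lymphocyte markers summed to 44.0 to 119.4 units on the vehicle arrays and 144.9 to 160.2 at 48 h, where 2 of the 5 tested were called higher. The erythroid markers Hba-a1 and Alas2 summed to 9.5 to 39.2 units on the vehicle arrays, 161.2 to 388.5 in resistant tumours at 40 mg/kg and 92.9 to 632.2 at 160 mg/kg, and the 1 tested was called higher in resistant tumours (log2 3.11). The part of these in the results at 48 h and in resistant tumours was not tested.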

How the data were processed

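The deposited values are linear signal intensity, 1 value for each of 45101 probe sets on 23 arrays, which the authors made with MAS5 per the submitters' processing notes. Its version and the scaling are not given in the sources used here; the 2% trimmed mean was 150 on every array. According to the design text the array is the Affymetrix 430A 2.0, which is smaller than this table. Intensities carry no counting error, and the small number of arrays limits the precision.

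Members and lists were chosen with earlier results of these data known. Probe sets were named from the series' platform annotation (34958 with 1 symbol, 932 with several, 9211 with none), and the 64 control probe sets served only for the actin ratio. Values were analysed as log2(signal + 16), for the 35069 probe sets that passed the 40th percentile of an array in 2 or more arrays. A mean per group was fitted over all 23 arrays with limma 3.58.1 in R 4.3.3 (eBayes with trend, 15 residual degrees of freedom), which was tested on simulated data. Two-sided p-values received a Benjamini-Hochberg adjustment within each of 8 comparisons, plus 2 between time points that were added after seeing the data. The resistant comparison weights its doses equally. All probe sets of the members are named, and from each pathway list at most the 4 called genes with the smallest p at 48 h and in resistant tumours, with Foxo1 and Foxo3 as exceptions. Alternatives were offsets of 1 and 64, no filter, a 60th percentile filter, quantile normalization, no trend in eBayes, a fit of the compared arrays alone, a control of all 5 vehicle arrays, a factor for the replicate number or for the run of title identifiers (3 runs), and leaving out each array. The vehicle, 48 h and resistant arrays all fall in run 1, and the 4 h and 8 h drug arrays in run 2. Of the 24 h arrays, replicate 1 is in run 2 and the others are in run 1. The 4 h vehicle arrays are in runs 3 and 2, so a difference between the vehicle groups cannot be told apart from the run. The 4 h vehicle as control and leaving out arrays that another label calls resistant were added after seeing the data. Promoters came from RefSeq (GRCm38.p6).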

Additional observations from a re-analysis of the deposited data

Results flagged for a closer look

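The 24 and 48 h drug groups, which share the vehicle arrays as control, differed from each other at 7 of the 28 member probe sets, by limma's test of 48 h against 24 h of drug. That share, 25%, is near the 20.5% called over all tested probe sets. All 6 Mcl1 probe sets were higher at 48 h: 1416880_at by log2 0.58 (adjusted p = 2.74e-04), 1416881_at by 1.23 (1.63e-05), 1437527_x_at by 0.64 (5.21e-05), 1448503_at by 0.68 (8.48e-05), 1456243_x_at by 0.76 (2.89e-05) and 1456381_x_at by 0.67 (6.08e-05). Bcl2l11 1456005_a_at was lower, at log2 -0.90 (adjusted p = 1.91e-04). In each of these 7 the 3 arrays of one time lay beyond the 3 of the other, and over all tested probe sets 37.8% did not overlap. Between the same times the 10 macrophage markers were all called higher, with a median log2 difference of 2.58, and the actin ratio was lower; the part of either was not tested. Groups of 2 or 3 arrays are too small for a check on single far-off arrays.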

How the results depend on the processing

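Over 224 member results, 3592 alternative values were computed. Of the values for the 47 called results, 713 kept direction and call, 95 lost the call and 1 reversed, 42 uncalled values were gained, and 168 sign changes had a call on neither side. The reversal was Bcl2l11 1456005_a_at at 48 h, at log2 -0.066 with the 4 h vehicle arrays as control. At 4 h the count of called probe sets rose from 0 to 4 with all 5 vehicle arrays. At 8 h it went from 2 to 4 with the 60th percentile filter, 1 without trend, 5 with only the compared arrays, 0 with the identifier run as a factor and 10 with all 5 vehicle arrays, and to 0 to 1 with an array left out. Between the resistant doses it went from 0 to 1 with the 60th percentile filter and 0 to 2 with an array left out. In resistant tumours it went from 4 to 1 without trend, 1 with only the compared arrays, 2 with the 4 h vehicle as control, and 1 to 5 with an array left out. Left-out arrays gave 12 to 17 calls at 24 h, 15 to 17 at 48 h and 4 to 7 for resistant 40 mg/kg against 48 h. The share of all probe sets called under each setting is not given here. The cause of these shifts was not tested, beyond the change in arrays or probe sets that each setting makes. The comparison without arrays labelled resistant elsewhere could not be run at 8 h, where it leaves no array.

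With the replicate number as a block, 16 probe sets were called at 24 h, 15 at 48 h, 3 at 8 h, 5 in resistant tumours and 4 for resistant 40 mg/kg against 48 h. The share of all probe sets called with this block is not given here, so these counts have no background beside them. The replicate numbers do not pair the arrays: over 22 same-number pairs the correlation of deviations ran from -0.104 to 0.0774, with 0 above 0.1, and in 6 the best match had the same number. Probe sets near background limit what can be seen of Bmf 1422995_at, Bid 1448560_at and the low Bcl2l1 and Bak1 probe sets.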

Other observations

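Set against 48 h of drug, resistant tumours at 40 mg/kg differed in the wider apoptosis lists as well, where 17.8% of all 14980 genes tested by main probe set were higher and 19.2% lower. Among other BCL2 homologues 3 of 8 were higher and 1 lower: Bok (428 against 217, log2 0.91), Bcl2l12 (log2 0.96) and Bcl2l13 (log2 0.98) were higher, and Hrk was lower (log2 -0.91). Of the 17 tested genes in the list of apoptosome, caspases and inhibitors, 5 were higher, among them Birc5 (log2 1.22) and Cycs (log2 0.76), and 3 lower, among them Casp8 (log2 -1.01). Of 11 upstream regulators, 6 were higher, among them E2f1 (log2 1.50), Mycn (log2 1.23), Atf4 (log2 0.64) and Foxo1 (log2 0.61), and 2 lower, Mapk10 (log2 -2.70) and Foxo3 (log2 -0.62). Each value named here has a limma adjusted p below 0.05, and all 10 macrophage markers were lower in the same comparison (median log2 -1.62), whose part was not tested.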
